A study of Bos taurus with 6 samples.

Results

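The insulin-like growth factor (IGF) system was followed in bovine granulosa cells through 10 genes: the ligands IGF1 and IGF2, the receptors IGF1R and IGF2R, the binding proteins IGFBP2, IGFBP3, IGFBP4, IGFBP5 and IGFBP6, and the protease PAPPA. They are 10 of the 15216 genes named on the array. The genes were chosen by name, and every array probe that carried one of these symbols was taken. This gave 12 probes of the 43794 gene probes on the array, with 3 for IGF2 and 1 for each other gene. The granulosa cells were taken from 3 cows that received cetrotide and from 3 controls. Cetrotide holds cetrorelix, a blocker of the receptor for gonadotropin releasing hormone, which lowers the release of luteinizing hormone (LH). All cows were multiparous Holsteins stimulated with gonadotropins, and both groups went through coasting, an interval with no more follicle stimulating hormone, which lasted 68 hours until cells were aspirated from pre-ovulatory follicles. The sources used here do not give age, cetrotide dose or the cows whose RNA met on each array.

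IGF1 and IGF2 act on cells through the tyrosine kinase receptor IGF1R. IGF2R binds IGF2 and delivers it to lysosomes, and the binding proteins hold the ligands in fluid and matrix. In bovine follicles IGF2 is known chiefly as a product of the theca, the layer outside the granulosa, while PAPPA, made by granulosa cells, cuts binding proteins such as IGFBP4 and IGFBP5 and frees the ligand. Granulosa cells respond to free IGF with growth and steroid synthesis, together with the gonadotropins.

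Each of the 6 two-colour arrays carried cetrotide RNA and control RNA, with cetrotide RNA in Cy5 on 3 arrays and in Cy3 on the other 3. Arrays with the same area number were averaged, which gave 3 dye-swap replicates (n = 3 throughout). A value is either a level, the log2 intensity of one RNA, or a ratio, the log2 of cetrotide over control. Per array and RNA, 53.5% to 82.5% of probes exceeded background, set at the 95th percentile of negative control spots, and the number of arrays limits the precision. The labelled cell type was checked against its markers. The gonadotropin receptor FSHR, the aromatase CYP19A1 and the inhibin subunits INHA and INHBA were above background for both RNAs on 6 of 6 arrays. The probes of FOXL2, a granulosa transcription factor, and of the LH receptor LHCGR were too dim to be kept. In samples of whole aspirates, fewer cells of a type and less RNA per cell cannot be told apart.

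All 12 probes passed the filter on dim probes, which asked for a level above background in the same RNA on at least 4 arrays. IGFBP5 and the IGF2 probe EMBV3_41040 passed through cetrotide RNA only, and PAPPA through control RNA only. With limma (Benjamini-Hochberg adjustment over 31769 probes) 0 of the 12 passed an adjusted p under 0.05, as did 0% of all probes, and the lowest adjusted p of a member was 0.216. At an unadjusted p under 0.05 in limma, 4 of the 12 probes were higher with cetrotide, against 7.84% of all probes, and 0 were lower, against 6.58%. These were the IGF2 probes EMBV3_37311 and EMBV3_41040 and the probes of IGF2R and IGFBP5. Since EMBV3_41040 and IGFBP5 were kept through the RNA in which they were high, this count and those that follow are a description and no support for a direction. Together with IGFBP3 the same probes were higher on 6 of 6 arrays, where 7.67% of all probes were. In 3 of 3 replicates 6 of the 12 were higher, against 18.1%, and 3 were lower, against 20.3%. None of the 12 was lower on all 6 arrays, against 7.44% of all probes. An exact sign-flip test over 3 averages cannot give a two-sided p below 0.25.

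**Figure D1:**
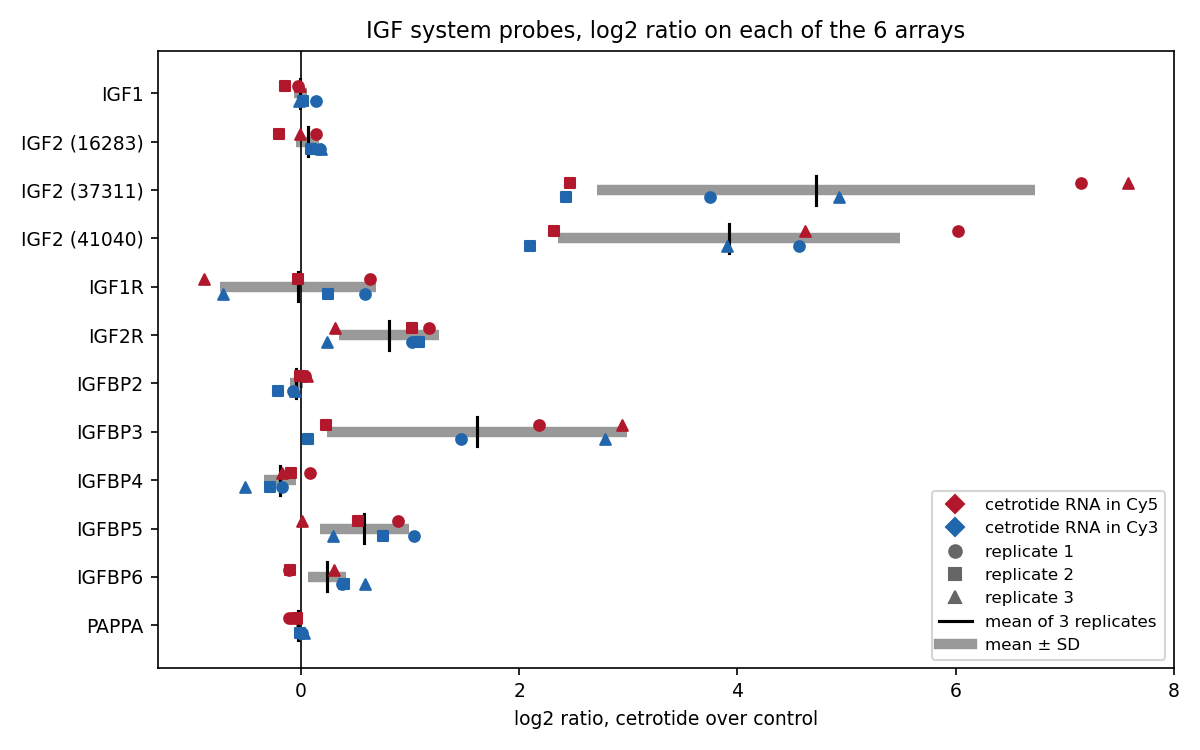
Log2 ratio of cetrotide over control (horizontal axis) for each of the 12 probes (rows), with a point per array, coloured by the dye of the cetrotide RNA and shaped by replicate, a black line at the mean of the 3 replicates and a grey bar for mean ± SD. The IGF2 probes 37311 and 41040 lie between 2.10 and 7.58, IGF2R, IGFBP3 and IGFBP5 lie above 0 on all 6 arrays, and IGF1, PAPPA and IGFBP2 lie close to 0.

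IGF2, a ligand that drives growth through IGF1R, had the widest difference of the 10 genes, and 2 of its 3 probes carried it. At probe EMBV3_37311 the level was 15.21, 11.07 and 14.62 in cetrotide RNA of replicates 1, 2 and 3, against 9.76, 8.63 and 8.36 in control RNA. The groups did not overlap: the lowest cetrotide level, in replicate 2, was above the highest control level, in replicate 1. The mean ratio was 4.72 ± 2.01 (SD, n = 3), that is 26.3-fold higher, with single replicates from 5.45-fold to 76.4-fold. The 95% confidence interval of the limma fit, without adjustment for the number of probes, ran from 4.17-fold to 166-fold, and the adjusted p was 0.224. Before any correction the scanner gave this spot 1982 to 36892 intensity units in cetrotide RNA and 207 to 2614 in control RNA. The lowest control value came from replicate 3 with control RNA in Cy3. There the median probe also read 207 and the median negative control 162. The 76.4-fold replicate includes this value, so its size is uncertain.

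The other IGF2 probe with a wide difference, EMBV3_41040, gave the same direction on every array. Its level was 12.64, 8.03 and 10.26 in cetrotide RNA of replicates 1, 2 and 3, against 7.35, 5.82 and 5.99 in control RNA. Control RNA was above background at this probe on 2 of 6 arrays, both of replicate 1, and cetrotide RNA on 6 of 6. In replicates 2 and 3 the control level is thus only an upper limit. With the lowest level above background in its place, the ratio was 1.81 in replicate 2 and 4.01 in replicate 3, against 5.29 as measured in replicate 1. The mean difference was then 13-fold. These values are no firm lower limits, since some control spots below background had higher levels, such as 6.84 at EMBV3_16283 in replicate 2. As measured, the mean ratio was 3.92 ± 1.57 (SD, n = 3; adjusted p = 0.216 with limma). In a limma fit of all 6 arrays with dye as a term and areas as random blocks, this probe had an adjusted p of 0.0394 and EMBV3_37311 one of 0.0965. That fit called 1.38% of all probes higher and 0.941% lower. Counted over genes and unnamed probes it called 411 and 264, where the averages called 0 and 0. Its call for EMBV3_41040 concerns a probe that was kept through cetrotide RNA and was below background in control RNA on 4 arrays.

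Both probes had their smallest measured ratio in replicate 2, with 2.45 at EMBV3_37311 and 2.21 at EMBV3_41040. Leaving out a replicate moved the measured mean to between 3.95 and 5.85 at EMBV3_37311 and between 3.24 and 4.78 at EMBV3_41040, with the highest values without replicate 2. In replicates 1 and 3 EMBV3_37311 had 5.45 and 6.26. The size also moved with the dye. EMBV3_37311 had ratios of 7.15, 2.47 and 7.58 with cetrotide RNA in Cy5 and of 3.75, 2.43 and 4.93 with it in Cy3. In the same arrays its cetrotide level differed little by dye (15.33, 10.99 and 14.50 in Cy5, and 15.09, 11.16 and 14.73 in Cy3). Its control level was 8.18, 8.52 and 6.92 in Cy3, and 11.34, 8.73 and 9.80 in Cy5.

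The third IGF2 probe, EMBV3_16283, did not show the difference. Its level was 7.09, 6.94 and 6.94 in cetrotide RNA, against 6.93, 6.998 and 6.85 in control RNA, so the groups overlapped. The mean ratio was 0.06 ± 0.11 (SD, n = 3), with an unadjusted 95% interval from 0.891-fold to 1.22-fold and an adjusted p of 0.787 in limma. This probe was dim, above background for cetrotide RNA on 5 arrays and for control RNA on 4. Per replicate the ratio of EMBV3_37311 exceeded it by 5.30, 2.50 and 6.17. Which transcripts of IGF2 the 3 probes match was not tested, and in the ARS-UCD2.0 gene table IGF2 lies next to the insulin gene INS. The mean over the 3 probes was 2.90 ± 1.18 (adjusted p = 0.215 with limma). In the authors' deposited table of processed log ratios, the mean over the 6 arrays was 4.79 for EMBV3_37311, 3.37 for EMBV3_41040 and 0.07 for EMBV3_16283.

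**Figure D2:**
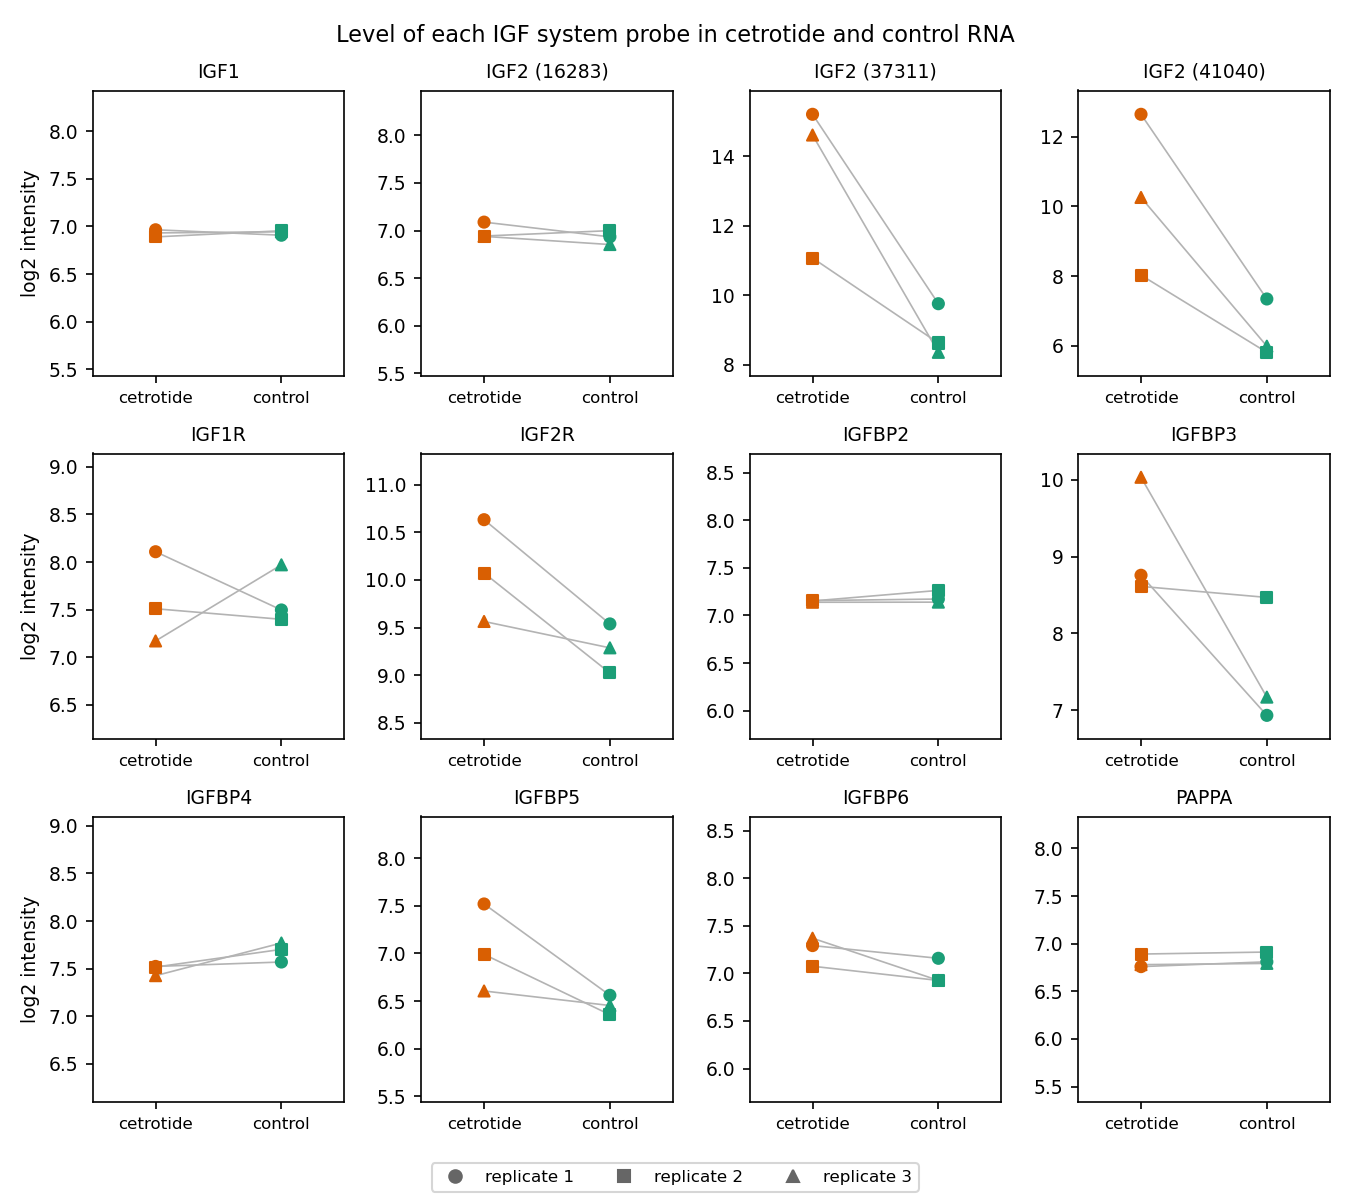
Log2 intensity (vertical axis, with its own range in each panel) of the 12 probes in cetrotide RNA (orange, left) and control RNA (green, right), where each point is the mean of the 2 arrays of a replicate and a grey line joins the RNAs of one replicate. The groups do not overlap for IGF2 probes 37311 and 41040, IGF2R, IGFBP3 and IGFBP5, which are higher in cetrotide RNA, nor for IGFBP4, which is lower. Levels of different probes cannot be set against each other.

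IGF1, the ligand that reaches the follicle largely through blood, was dim and had a ratio near 0. Its level ran from 6.89 to 6.96 in cetrotide RNA and from 6.91 to 6.95 in control RNA, above background on 5 arrays for each RNA. The mean ratio was -0.01 ± 0.06 (SD, n = 3), and the unadjusted 95% interval ran from 0.869-fold to 1.14-fold. At an intensity this near background a difference in IGF1 would be hard to see, since the background offset pulls ratios of dim probes towards 0.

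The receptors differed in how their replicates lay. IGF2R, which clears IGF2, had levels of 10.63, 10.07 and 9.56 in cetrotide RNA of replicates 1, 2 and 3, against 9.54, 9.02 and 9.29 in control RNA. The groups did not overlap, and replicate 3 had the smallest difference. The mean ratio was 0.81 ± 0.46 (SD, n = 3), 1.75-fold, with an adjusted p of 0.278 in limma. Its ratios differed little by dye, at 1.17, 1.01 and 0.31 with cetrotide RNA in Cy5 and 1.02, 1.08 and 0.24 in Cy3.

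IGF1R, the signalling receptor for both ligands, had levels of 8.11, 7.51 and 7.17 in cetrotide RNA and 7.50, 7.40 and 7.97 in control RNA. Replicate 1 had a ratio of 0.61, replicate 2 of 0.11 and replicate 3 of -0.80, so the groups overlapped. The mean ratio of -0.03 ± 0.72 (SD, n = 3; adjusted p = 0.982 with limma) thus joined replicates of opposite sign, and without replicate 3 it was 0.36. Its unadjusted 95% interval, 0.505-fold to 1.91-fold, spans a change in either direction.

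Among the binding proteins IGFBP3, the main carrier of IGF in serum, had the widest difference. Its level was 8.76, 8.61 and 10.03 in cetrotide RNA of replicates 1, 2 and 3, against 6.93, 8.47 and 7.17 in control RNA. Replicate 2 stood apart through a higher control level, and its ratio was 0.14 where replicates 1 and 3 had 1.83 and 2.86. Control RNA was above background on 5 of 6 arrays and fell below it on an array of replicate 1. The mean ratio was 1.61 ± 1.37 (SD, n = 3), 3.06-fold, with an adjusted p of 0.390 in limma and an unadjusted 95% interval from 0.865-fold to 10.8-fold. Without replicate 3 the ratio was 0.98, and without replicate 2 it was 2.34. IGFBP3 was among the 3 probes at least 2-fold higher, with both bright IGF2 probes, where 2.97% of all probes were. None of the 12 was at least 2-fold lower, against 0.812%.

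IGFBP5 is a binding protein that attaches to matrix and is known in rodents as a product of granulosa cells of atretic follicles. It was not above background in control RNA on any array. It was above background in cetrotide RNA on 4 arrays, those of replicates 1 and 2. Measured levels were 7.52, 6.99 and 6.61 in cetrotide RNA, against 6.56, 6.36 and 6.45 in control RNA. With the lowest level above background taken for control RNA, the mean difference was 1.4-fold higher, and the fitted adjusted p was 0.335 with limma. In replicate 3 neither RNA was above background, so the 1.4-fold is no lower limit.

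IGFBP4, which binds IGF and withholds it from the receptor, was the member whose groups lay apart in the other direction. Its level was 7.52, 7.52 and 7.43 in cetrotide RNA and 7.57, 7.70 and 7.77 in control RNA. Its mean ratio was -0.19 ± 0.15 (SD, n = 3), 1.14-fold lower, with an adjusted p of 0.465 in limma, and it was below 0 on 5 of 6 arrays. Groups that lay apart were thus seen for 5 probes higher with cetrotide and 1 lower, where 9.18% and 8.44% of all probes did so. The 5 include EMBV3_41040 and IGFBP5, which the filter kept through cetrotide RNA.

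IGFBP6, which prefers IGF2 over IGF1, had levels of 7.29, 7.08 and 7.37 in cetrotide RNA, against 7.16, 6.93 and 6.93 in control RNA. The groups overlapped, and the mean ratio was 0.24 ± 0.17 (adjusted p = 0.414 with limma). By dye the ratio averaged 0.03 with cetrotide RNA in Cy5 and 0.45 with it in Cy3. IGFBP2, a binding protein of granulosa cells in small bovine follicles, had levels from 7.14 to 7.16 in cetrotide RNA and from 7.14 to 7.26 in control RNA. Its mean ratio was -0.04 ± 0.06, with an unadjusted 95% interval from 0.848-fold to 1.11-fold. IGFBP2 and IGFBP5 lie next to each other in the ARS-UCD2.0 gene table.

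PAPPA, the protease that frees IGF from binding proteins, was dim, above background on 3 arrays for cetrotide RNA and on 4 for control RNA. Its level ran from 6.76 to 6.89 in cetrotide RNA and from 6.79 to 6.91 in control RNA, and the mean ratio was -0.03 ± 0.02 (SD, n = 3). A difference in PAPPA was not detectable at this signal, and the unadjusted 95% interval of 0.866-fold to 1.11-fold holds for the dim spot as measured.

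The members fell into patterns over the replicates. Both bright IGF2 probes and IGFBP3 had their lowest ratio in replicate 2, as did EMBV3_16283, IGF1 and IGFBP2, whose mean ratios were near 0. IGF2R, IGF1R, IGFBP4 and IGFBP5 had their highest ratio in replicate 1 and their lowest in replicate 3. IGFBP6 and PAPPA had their lowest in replicate 1. With 3 replicates these orders are a description only. Across the 6 arrays, which are 3 pairs of the same replicates, EMBV3_37311 had the widest range of ratios among the brightest probes of the members, 5.15 on the log2 scale. Of 12388 other named genes, those with the highest Pearson correlation to it were ARSI, EVI2A and IL2RA (r = 0.990, 0.989 and 0.986), and 66 genes had r above 0.95. Their own mean ratios were 0.38, 0.05 and 0.20, far smaller than that of IGF2. IL2RA encodes a chain of the interleukin 2 receptor and ARSI an arylsulfatase.

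Most measured genes on the marker lists of theca and stroma, epithelium, endothelium and leukocytes also had ratios above 0. Of the theca and stroma markers 12 of 15 measured had ratios above 0, and their summed intensity was 29350 to 84860 in cetrotide RNA, against 17620 to 24560 in control RNA. Their median ratio was 0.86, 0.04 and 0.02 in replicates 1, 2 and 3. The summed intensities, here and below, weigh bright probes most and do not speak for each gene of a list. Of the 15 measured theca and stroma genes, 8 had their lowest ratio in replicate 2, 6 in replicate 3 and 1 in replicate 1. The gene lowest in replicate 1 was the hedgehog receptor PTCH1, below 0 throughout at -1.35, -0.50 and -1.16. Replicate 2 was also lowest for both bright IGF2 probes and IGFBP3. By the same count it was lowest for 10 of 12 endothelial, 10 of 12 leukocyte, 3 of 8 epithelial and 0 of 10 granulosa markers. This order was thus not particular to theca and stroma. The collagen genes COL1A2 (7.23, 1.10 and 4.78, with control RNA above background on 3 of 6 arrays) and COL3A1 (8.37, 0.40 and 4.98) had the widest mean ratios of the list. The theca steroid enzyme CYP17A1 had 0.02, -0.09 and 0.15. Its probe was dim, above background for cetrotide RNA on 5 arrays and for control RNA on 3, so a difference would be hard to see. The theca hormone INSL3 had 0.55, 0.04 and 0.13. The part of theca and stroma in the IGF2 ratio was not tested.

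Epithelial markers were above 0 for 8 of 8 measured genes, with a summed intensity of 14320 to 170000 in cetrotide RNA, against 1652 to 13630 in control RNA. Their medians were 0.83, 1.41 and 3.25 in the 3 replicates. Control RNA was above background on 6 of 6 arrays for KRT7, KRT8, KRT18, CLDN4 and ELF3. It was so on 5 arrays for KRT19 and EPCAM and on 2 for MUC1. Which cells the epithelial markers came from, granulosa cells included, was not tested. For endothelium 10 of 12 and for leukocytes 11 of 12 measured markers were above 0, with medians of 0.62, -0.03 and 0.44 and of 0.40, -0.05 and 0.58. Their summed intensities were 1753 to 4456 in cetrotide RNA against 1745 to 2070 in control RNA for endothelium, and 4618 to 5830 in cetrotide RNA against 2001 to 4791 in control RNA for leukocytes. The endothelial marker PECAM1 was above background for cetrotide RNA on 1 array and for control RNA on 0, so its probe was not kept, nor was that of the macrophage marker CSF1R, at 0 arrays for both. For granulosa markers 3 of 10 were above 0 and 7 below, with medians of -0.55, 0.36 and -1.32 and summed intensities of 46140 to 105600 in cetrotide RNA against 82070 to 106300 in control RNA. Of the granulosa markers 9 of 10 were lowest in replicate 3 and 1 in replicate 1. Replicate 3 was also lowest for IGF1R, IGF2R, IGFBP4 and IGFBP5. Whether these markers account for any ratio of the IGF genes was not tested.

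**Figure D3:**
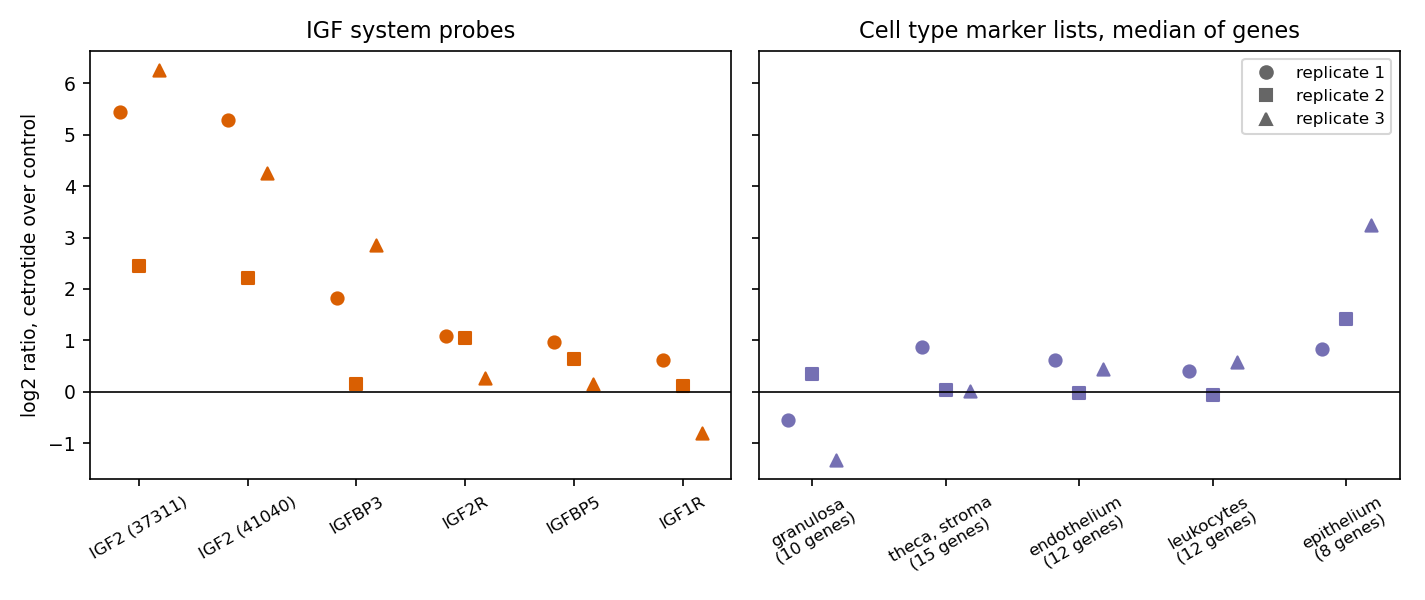
Log2 ratio of cetrotide over control (vertical axis) in each dye-swap replicate, for 6 IGF system probes (left) and for the median of 5 lists of cell type markers (right), with point shape marking the replicate. Replicate 2 is lowest for both IGF2 probes and IGFBP3, and its endothelium and leukocyte medians lie at -0.03 and -0.05.

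Further along the pathway the median ratio was near 0. Of 59 listed genes of insulin and IGF signalling other than the members, 41 were measured, and 0 passed an adjusted p under 0.05 in limma over all 27429 genes and unnamed probes, where 0% did. At an unadjusted p under 0.05, 1 of the 41 was higher, against 8% of all genes and unnamed probes, and 2 were lower, against 6.46%. The median ratio of the list was -0.01, with 19 genes above 0 and 22 below, and that of all genes and unnamed probes was -0.01, with 46.8% above 0.

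The gene on the higher side was the insulin receptor INSR, which can pair with IGF1R in hybrid receptors. It had ratios of 1.71, 1.33 and 0.29 in replicates 1, 2 and 3, a mean of 1.11 ± 0.73 (SD, n = 3; adjusted p = 0.307 with limma). As for IGF2R, replicate 3 had the smallest ratio. On the lower side were MTOR, the growth-promoting kinase downstream of AKT, with -0.23 ± 0.04 (adjusted p = 0.281), and DDIT4, a stress-induced inhibitor of that kinase, with -1.17 ± 0.40 (adjusted p = 0.194), both with limma. DDIT4 was below 0 in all 3 replicates, at -1.34, -1.46 and -0.72.

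By branch, the 12 measured receptor relatives and extracellular modulators had a median of -0.02, the 13 adaptors and kinases 0.06, the 9 genes of the mTOR branch -0.01, the 3 FOXO genes -0.03 and the 4 genes of the Ras branch 0.07. No gene of the adaptor, FOXO or Ras branches had an unadjusted p under 0.05 in limma. IGFBP1, which neighbours IGFBP3 in the ARS-UCD2.0 gene table, had a probe that did not pass the filter on dim probes.

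**Figure D4:**
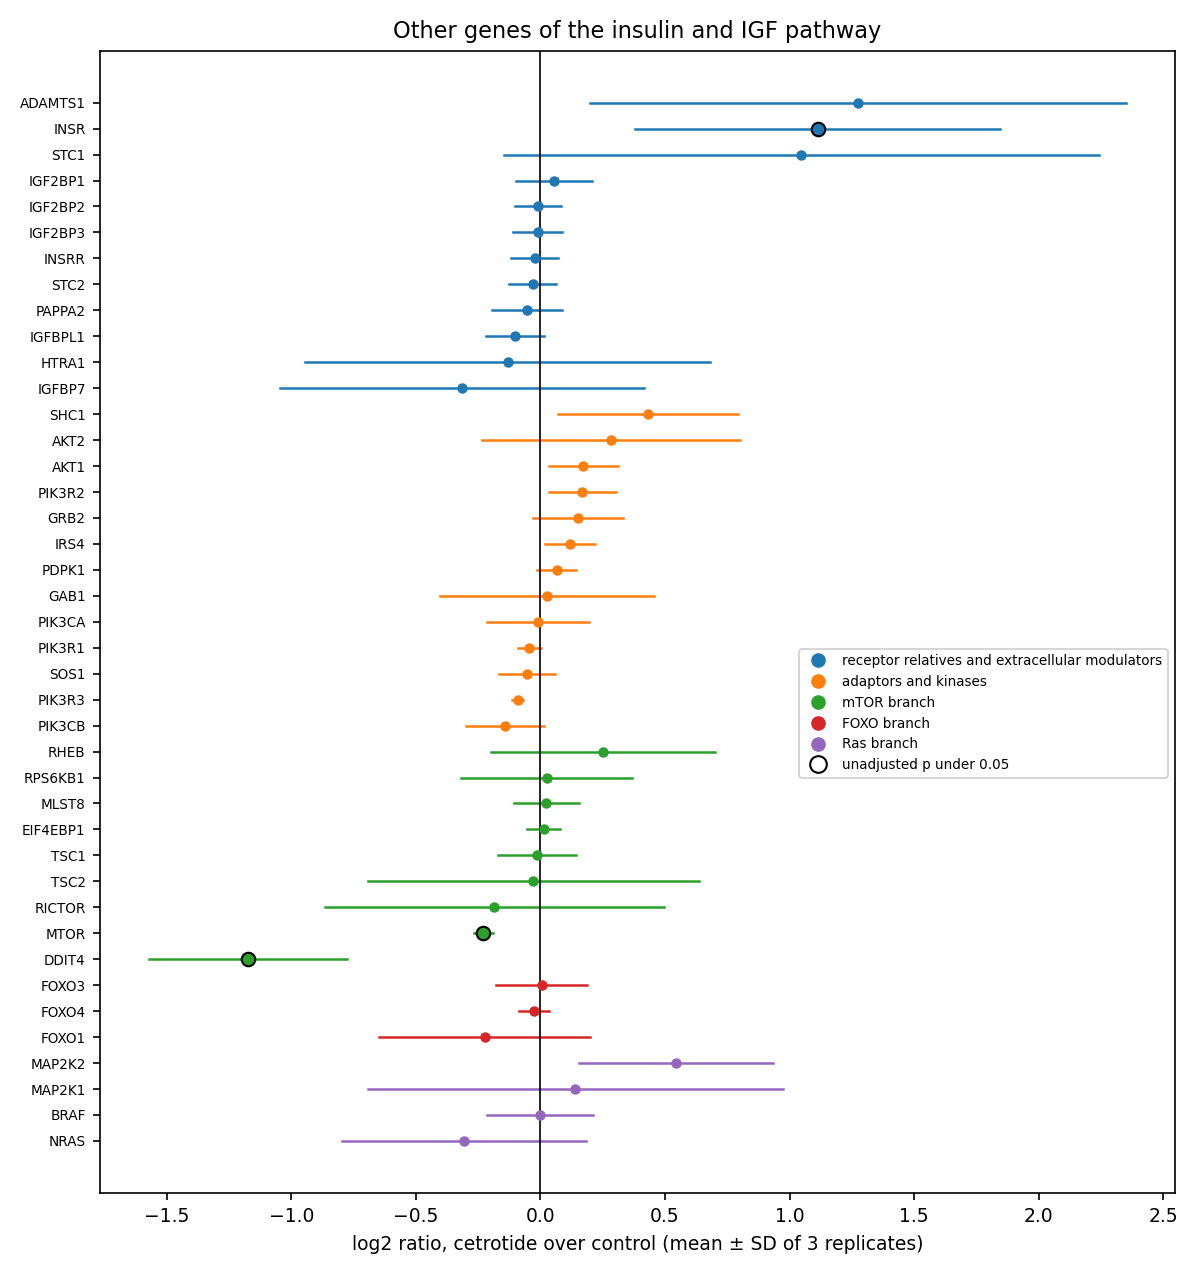
Mean log2 ratio of cetrotide over control (horizontal axis) with bars of ± SD over 3 replicates for the 41 measured genes of the insulin and IGF pathway, grouped and coloured by branch. Larger outlined points mark INSR, MTOR and DDIT4, with an unadjusted p under 0.05 in limma, of which INSR lies at 1.11 and DDIT4 at -1.17.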

How the data were processed

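Granulosa RNA went through 2 rounds of T7 amplification and chemical labelling with Cy dyes, per the labels' protocols, which can widen the spread between samples and give dye bias. The deposited scanner tables hold raw spot and background intensities at 532 and 635 nm, per the file headers. The authors also deposited processed log ratios, taken as log2 because their slopes on log2 scanner ratios were 0.828 to 0.930. All 6 columns ran cetrotide over control, and their medians were -0.00191, -0.000108, 0.000134, 0.00229, 0.00214 and 0.00748. Their centring and normalization remain unknown. The sources used here name no scanner, software or genome build.

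Mean spot intensities were corrected with normexp (offset 50), and ratios normalized by loess within arrays, control spots at weight 0 (limma 3.58.1, R 4.3.3). Levels also had Aquantile normalization between arrays. A probe was kept when one RNA exceeded the 95th percentile of 153 negative control spots on at least 4 arrays, which left 31769 of 43794 probes. Median probe intensity per array and RNA was 107 to 313, against 78.7 to 247 for negative controls. Saturation touched 0 member spots. For counts by gene, the brightest kept probe stood for a gene. Symbols came from the platform annotation (21790 probes with 1 symbol, 22004 with none), of which 1524 were updated through RefSeq synonyms.

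Arrays with the same area number were averaged. Their deviations from the mean of their dye orientation correlated at 0.900, 0.934 and 0.954 across genes and unnamed probes, against -0.706 to -0.00759 for other pairs. No label says that the averages hold separate cows, so the p-values reflect spread among these samples only, which may be technical. The 3 averages were tested against 0 with limma (lmFit, eBayes) at a threshold of 0.05. The text names every member, list genes with an unadjusted p under 0.05 (at most 6 per direction), and the 3 genes most like the member of widest range. COL1A2, COL3A1, PTCH1 and the other single markers were named after their values were seen. Members, lists and tests were chosen with earlier results of these data known.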

Additional observations from a re-analysis of the deposited data

Results flagged for a closer look

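Ratios of 6 of the 12 probes differed between the dye orientations by a paired limma test over areas, adjusted over all probes. The difference, in measured ratios, is that with cetrotide RNA in Cy5 minus that with it in Cy3. It was 2.03 for IGF2 probe EMBV3_37311 (means 5.73 in Cy5 and 3.70 in Cy3, adjusted p = 0.0146), 0.80 for IGF2 probe EMBV3_41040 (4.32 and 3.52, adjusted p = 0.0111) and 0.34 for IGFBP3 (1.78 and 1.44, adjusted p = 0.0357). It was 0.26 for IGFBP4 (-0.06 and -0.32, adjusted p = 0.0118), -0.22 for IGFBP5 (0.47 and 0.69, adjusted p = 0.0221) and -0.42 for IGFBP6 (0.03 and 0.45, adjusted p = 0.00194). Of all 31769 probes, 59% differed by the same limma test, so the share among the members is near that of the array. The arrays of each orientation share a title prefix that the labels do not explain, so dye and what the prefix stands for cannot be told apart. For each of the 6 probes the means of both orientations had the same sign, and both orientations count equally in every average.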

How the results depend on the processing

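For IGF2 probes EMBV3_37311 and EMBV3_41040, IGF2R, IGFBP3, IGFBP4, IGFBP5 and IGFBP6 the direction held in the 8 of 12 alternatives that move the ratio (both block fits, Aquantile and no filter leave it as it is), with ranges of 3.70 to 5.85, 3.24 to 4.78, 0.66 to 1.07, 0.98 to 2.34, -0.32 to -0.06, 0.37 to 0.80 and 0.03 to 0.45. The area number as a random replicate block (consensus correlation 0.852) called 411 genes and unnamed probes higher and 264 lower. Of the members it called IGF2 probe EMBV3_41040 (3.92, adjusted p = 0.0394 with limma), which was kept through cetrotide RNA. As a fixed replicate block the area number called 7915 genes and unnamed probes higher and 7035 lower. By probe it called 7 of 12 members (58.3%) against 54.6% of all probes. Measured ratios were unchanged by construction: 4.72 and 3.92 for IGF2, 0.81 for IGF2R, 1.61 for IGFBP3, -0.19 for IGFBP4, 0.58 for IGFBP5 and 0.24 for IGFBP6. That fit leaves the spread between replicates out of its error, so its calls do not speak to new replicates. With cetrotide in Cy3 alone 662 genes and unnamed probes were called higher and 225 lower. Members near 0 changed sign. IGF1 had 0.048 with cetrotide in Cy3 alone, 0.0098 without background correction, 0.0076 with median centring, and -0.038 to 0.023 leaving out one replicate. IGF1R had 0.040 in Cy3 alone and -0.34 to 0.36 leaving out one replicate. IGF2 probe EMBV3_16283 had -0.025 in Cy5 alone, IGFBP2 0.028 in Cy5 alone and 0.043 in the authors' table, and PAPPA 0.0081 in Cy3 alone. The causes were not tested. The pathway median was 0.045 with cetrotide in Cy5 alone, 0.051 in Cy3 alone, and -0.018 to 0.052 leaving out one replicate. Signal over background limits IGF1, PAPPA, IGFBP5 and IGF2 probe EMBV3_16283. It also limits control RNA at EMBV3_41040 and, in replicate 1, at IGFBP3. Intervals rest on 2 residual degrees of freedom and on 1.4 prior ones that limma takes from the spread of all kept probes.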
